A study of Mus musculus with 4 samples.

Results

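The genes described here are 10 genes of glucocorticoid action in the adult mouse heart. They are the glucocorticoid receptor Nr3c1, the mineralocorticoid receptor Nr3c2, the steroid-activating enzyme Hsd11b1 and 7 established targets, Fkbp5, Tsc22d3, Ddit4, Sgk1, Zbtb16, Cebpd and Errfi1. All 10 were found by symbol among the 23420 genes counted. The targets were selected on their CPM, partly for spread that they shared between these hearts, so their spread, and their place in a test run over all genes, is given as a description and supports nothing. Polyadenylated RNA was sequenced in 4 heart libraries of a single group, wild-type C57BL/6J mice labelled male and aged 12 weeks. The tissue label names the whole heart, while the protocol names the apex of the ventricles. There was no treated or control group, and hormone levels were not among the labels.

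Glucocorticoids, mainly corticosterone in the mouse, bind Nr3c1, which is kept ready for hormone by the chaperone Hsp90 and its partners. The bound receptor enters the nucleus and raises or lowers transcription, in part at DNA elements made of paired half-sites. Cardiomyocytes hold both Nr3c1 and Nr3c2, and where the inactivating enzyme Hsd11b2 is scarce, glucocorticoids as well as aldosterone can occupy Nr3c2. Hsd11b1 acts in the opposite direction and regenerates active hormone inside cells.

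Depth was 10523709 to 15359296 gene counts per library, and levels are given in CPM, counts per 1000000 gene counts. Sex-linked transcripts went against the label in libraries 2 and 3. Xist, which is made from the inactive X chromosome of female cells, had 5, 1897, 1806 and 19 counts in libraries 1 to 4, and Y-linked Ddx3y had 341, 0, 1 and 437. Libraries 1 and 4 were also the closest pair over all genes, with a chi-square per degree of freedom of 2.22, against 6.81 to 12.6 for the other pairs. Libraries 2 and 3 were the least alike pair, at 12.6. Results are therefore also given for libraries 1 and 4 alone. Separate animals are not stated for the 4 libraries, so p-values here measure only how far these samples differ, which may be technical. Cardiomyocyte markers summed to 98974, 99515, 108338 and 98532 CPM in libraries 1 to 4. Adrenal cortex markers summed to 2.71 to 3.32 CPM, and the defining adrenal enzymes Cyp11b1 and Cyp11b2 had 0 counts, which allows up to 0.195 to 0.285 CPM at 3 counts per library.

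Start sites of these genes were searched for the DNA element that Nr3c1 binds. RefSeq promoter windows (GRCm38.p6), from 250 bases before to 50 bases after a start site, were held for 7 of the 10 genes, 15 windows in all. The half-site was AGAACA, searched on both strands. The full palindrome was that half-site, any 3 bases and then its reverse complement. Its core was ACANNNTGT, so core and half-site both lie inside the palindrome. The palindrome was in 3 of 32851 windows of all genes, 0.00913%, and 1 of these belonged to Sgk1, where it began 189 bases before the start site, at 21993701 to 21993715 on chromosome 10. The core was in 2 of the 15 windows, both of Sgk1, and in 6.85% of all windows. The half-site was in 4 of the 15, of Sgk1 and Tsc22d3, and in 19.0% of all windows. The windows of Fkbp5, Ddit4, Errfi1, Hsd11b1 and Nr3c2 held none of these letters. The counts are per gene and do not tell which start site was used. The 250 bases before 3 of the start sites are shown as examples of the palindrome, of a core without it and of a lone half-site, with the match in capitals.
Sgk1, palindrome, chr10:21993640-21993889, plus strand: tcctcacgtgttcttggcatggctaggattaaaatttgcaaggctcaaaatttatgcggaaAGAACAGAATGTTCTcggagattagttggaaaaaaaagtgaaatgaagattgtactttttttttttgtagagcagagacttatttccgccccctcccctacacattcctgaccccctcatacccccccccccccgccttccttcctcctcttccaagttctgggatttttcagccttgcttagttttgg
Sgk1, core, chr10:21978422-21978671, plus strand: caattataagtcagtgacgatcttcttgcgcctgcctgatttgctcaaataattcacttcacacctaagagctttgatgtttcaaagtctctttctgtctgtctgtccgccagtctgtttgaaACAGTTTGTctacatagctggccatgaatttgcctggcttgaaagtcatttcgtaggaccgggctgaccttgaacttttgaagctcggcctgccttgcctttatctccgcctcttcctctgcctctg
Tsc22d3, half-site, chrX:140600523-140600772, minus strand: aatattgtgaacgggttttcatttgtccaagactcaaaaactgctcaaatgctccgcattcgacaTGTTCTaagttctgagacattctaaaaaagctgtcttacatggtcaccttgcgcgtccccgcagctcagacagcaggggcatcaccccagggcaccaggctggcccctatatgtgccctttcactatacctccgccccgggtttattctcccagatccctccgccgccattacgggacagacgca

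Both receptors differed little between libraries. Nr3c1 (chromosome 18, 39410545 to 39519421, mm10) had 59.5, 70.8, 66.7 and 62.9 CPM in libraries 1 to 4, a mean of 65.0 ± 4.85 CPM (SD, n = 4). Its highest library was 1.19-fold above its lowest, and library 2 was the highest. The 95% Poisson limits of library 2 (66.4 to 75.3 CPM) did not meet those of library 1 (55.6 to 63.7 CPM). Nr3c2 (chromosome 8, 76899442 to 77245012) had 21.2, 22.6, 21.7 and 22.1 CPM, a mean of 21.9 ± 0.622 CPM (SD, n = 4). The 95% Poisson limits of its 4 values overlapped, and its coefficient of variation was 2.84%. Of the 12358 genes that averaged 1 CPM or more, 4.92% had a lower coefficient of variation than Nr3c2. The exons of Nr3c2 share 3.82% of their bases with Gm10649 on the opposite strand, and since strand was not kept, those reads cannot be told apart.

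Hsd11b1 (chromosome 1, 193221634 to 193264075) had the largest coefficient of variation of the 10 genes, 49.7%. It had 13.8, 4.96, 6.65 and 14.9 CPM in libraries 1 to 4, from 199, 69, 70 and 229 counts. Libraries 2 and 3 were low and libraries 1 and 4 high, the division seen in Xist, which was high in libraries 2 and 3 and whose part in this was not tested. The 95% Poisson limits reached 6.27 CPM in library 2 and 8.40 CPM in library 3, below those of library 1, which began at 12.0 CPM. In bulk tissue, fewer cells of a type and less RNA per cell cannot be told apart.

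Fkbp5 (chromosome 17, 28399094 to 28517527) encodes an Hsp90 partner that lowers the hormone affinity of Nr3c1 and is itself induced by the receptor. It had 79.0, 25.2, 50.5 and 81.8 CPM in libraries 1 to 4. Library 2 was lowest, library 3 lay between, and libraries 1 and 4 were high, 1.04-fold apart. The highest value was 3.24-fold above the lowest, and the limits of library 2 (22.6 to 28.0 CPM) did not meet those of library 3 (46.3 to 54.9 CPM).

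Tsc22d3 (chromosome X, 140539528 to 140600659), the glucocorticoid-induced leucine zipper, restrains inflammatory transcription factors. It had 107, 49.0, 76.2 and 106 CPM in libraries 1 to 4, with the top value 2.18-fold above the bottom one. Library 2 was lowest and library 3 lay between it and the other two, as for Fkbp5. Errfi1 (chromosome 4, 150853919 to 150868892), a feedback inhibitor of the epidermal growth factor receptor, had 19.4, 7.90, 15.8 and 20.6 CPM. Its order of libraries was again that of Fkbp5, with a range of 2.61-fold.

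Ddit4 (chromosome 10, 59949669 to 59951834), an inhibitor of the growth-promoting kinase complex mTORC1, had 60.3, 17.2, 50.8 and 53.2 CPM. Library 2 stood alone at the low end, 3.50-fold below library 1, and without it the range was 1.19-fold. Cebpd (chromosome 16, 15887286 to 15891031), a transcription factor of acute responses, had 10.8, 2.95, 7.51 and 9.05 CPM. Its range of 3.67-fold was the widest of the 10 and rested on 41 counts in library 2. Its exons share 15.0% of their bases with Spidr on the opposite strand, so its level is uncertain by reads that cannot be told apart.

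Zbtb16 (chromosome 9, 48654297 to 48836222), a zinc finger transcription factor, had the most counts of the 10, with 303, 178, 195 and 300.7 CPM. Libraries 2 and 3 were both low, the division seen for Hsd11b1 and Xist, and libraries 1 and 4 were 1.01-fold apart. Sgk1 (chromosome 10, 21882184 to 21999903), a kinase that acts on ion channels and transporters downstream of both receptors, had 44.5, 25.5, 52.5 and 50.1 CPM. Library 2 was lowest, but the highest value was in library 3, which was so for no other target among the 7. Without library 2 the range of Sgk1 was 1.18-fold, against 2.06-fold with it.

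**Figure D1:**
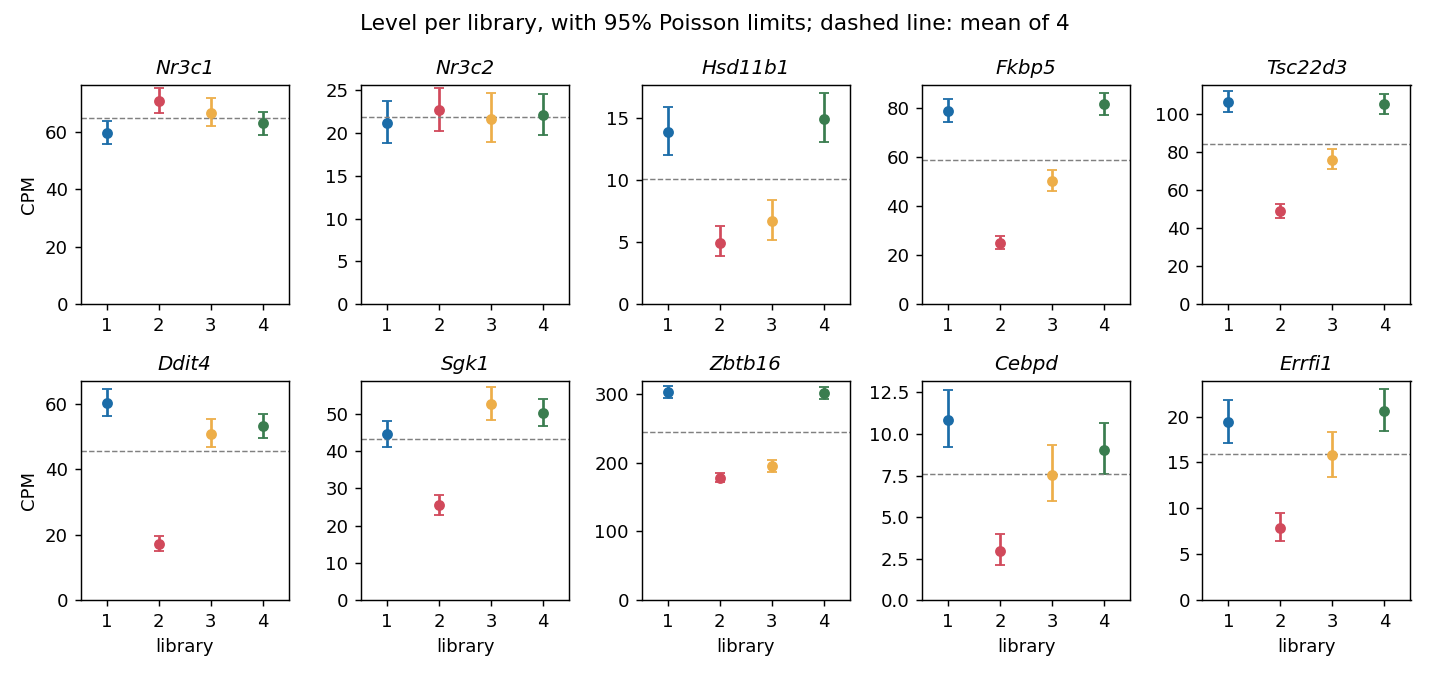
Level of each of the 10 genes in CPM (vertical axes, from 0) in libraries 1 to 4 (horizontal axes). Points are single libraries, bars are 95% Poisson limits and dashed lines are means of the 4 libraries. Nr3c1 and Nr3c2 vary little, while library 2 is the lowest for the other 8 genes, for example at 25.2 CPM for Fkbp5.

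Of the 10 genes, 8 were lowest in library 2, including 7 of 7 targets, and 30.7% of all genes tested were lowest there. Libraries 1 and 4 were the highest pair for 6 of the 7 targets, all but Sgk1, and for 23.7% of all genes tested. The 7 targets together summed to 623, 306, 448 and 621 CPM in libraries 1 to 4. The median coefficient of variation was 34.3% over the 10 genes and 9.59% over all genes tested. Without library 2 the highest over the lowest value was 1.62-fold for Fkbp5, 1.44-fold for Cebpd, 1.40-fold for Tsc22d3 and 1.31-fold for Errfi1. It was still 2.24-fold for Hsd11b1 and 1.55-fold for Zbtb16, against 3.01-fold and 1.70-fold with library 2. The median coefficient of variation of the 10 genes without library 2 was 15.8%. With libraries 1 and 4 alone, that median over the 10 genes was 4.20%, and no member differed between them by more than 1.20-fold. The lowest and the highest library of each member were the same under 3 other scalings.

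Spread was set against that of genes of similar abundance as a variance ratio, from edgeR's quasi-likelihood fit to the 12358 genes that averaged 1 CPM or more. All 10 members passed that filter. At a Benjamini-Hochberg adjusted p under 0.05, 55 genes were called more variable, 0.445% of those tested, and 3 of the 10 members were among them. These were Fkbp5, Ddit4 and Tsc22d3, with log2 variance ratios of 5.74, 5.68 and 4.85. The lowest ratio of a called gene was 4.78, and Zbtb16 at 4.42 and Hsd11b1 at 4.26 were the members next below it. Sgk1 was at 4.24, Errfi1 at 4.12 and Cebpd at 3.86, while Nr3c1 was at 0.48 and Nr3c2 at -3.15. Without library 2 none of the 3 was called, and without library 1 or library 4 Tsc22d3 was not. At an unadjusted p under 0.05, edgeR placed 8 of the 10 members and 741 of the 12358 genes. Nothing is read from these counts, because spread helped to choose the targets.

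**Figure D2:**
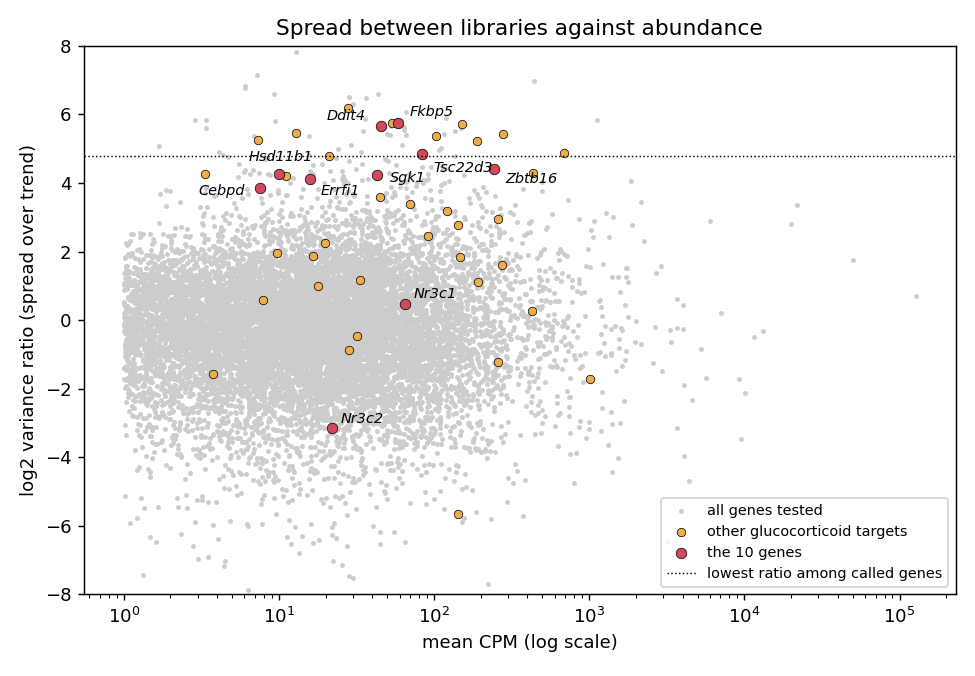
Log2 variance ratio (vertical axis) against mean level in CPM (horizontal axis, log scale) for all genes tested (grey), other glucocorticoid targets (orange) and the 10 genes (red). The dotted line is the lowest ratio of a called gene, 4.78, with Fkbp5, Ddit4 and Tsc22d3 above it and Nr3c1 and Nr3c2 among the grey points. The axis ends at -8 and 8, and 5 genes lie beyond it.

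The shapes of the profiles differed among the members. The measure of likeness was the root mean square difference of log2(CPM + 0.5) over the 4 libraries, each profile centred on its own mean. Nr3c1 and Nr3c2 were the nearest pair at 0.067, followed by Ddit4 and Cebpd at 0.12 and Tsc22d3 and Errfi1 at 0.12. Among 9607 genes that averaged 5 CPM or more, the nearest to Fkbp5 outside the 10 included AI607873 (0.067), Hmox1 (0.082), Per1 (0.10) and Zfp36 (0.13). Hmox1, the haem-degrading enzyme, had 21.9, 7.62, 14.8 and 21.9 CPM in libraries 1 to 4. The nearest to Tsc22d3 were Adamts1 (0.031), Fmo2 (0.066), 4430402I18Rik (0.070), Sult1a1 (0.075) and Rasgef1b (0.081). Adamts1, a secreted protease of the extracellular matrix, had 65.3, 29.5, 44.0 and 62.8 CPM. The nearest to Ddit4 were Ctgf (0.081), 8430408G22Rik (0.16), Ankrd1 (0.18), Per1 (0.23) and Hmox1 (0.23). Ctgf, a matricellular protein, had 157, 50.4, 126 and 145 CPM, with library 2 alone at the low end as for Ddit4. With 4 libraries, likeness of this kind is a description only.

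Levels were compared between genes per kilobase of exon, since longer transcripts give more reads. Zbtb16 stood highest at 46.2 ± 12.6 CPM per kilobase (SD, n = 4), followed by Ddit4 at 25.9 ± 10.9 and Tsc22d3 at 19.4 ± 6.33. Then came Sgk1 at 8.80 ± 2.49, Nr3c1 at 8.46 ± 0.631, Fkbp5 at 6.24 ± 2.82 and Errfi1 at 4.44 ± 1.60 CPM per kilobase. The lowest were Nr3c2 at 3.38 ± 0.096, Hsd11b1 at 2.37 ± 1.18 and Cebpd at 2.02 ± 0.901 CPM per kilobase. The only neighbours in this order whose ranges over the 4 libraries did not overlap were Tsc22d3 and Sgk1. With the length of the longest transcript in place of all exon bases, a setting chosen after seeing the data, Fkbp5 stood at 15.3 CPM per kilobase, above Sgk1 at 13.9 and Nr3c1 at 10.1, and Tsc22d3 at 29.3 stood above Ddit4. Hsd11b1 then stood at 5.10, above Nr3c2 at 3.70 and near Errfi1 at 5.23 CPM per kilobase.

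Each of 8 pairs set a member against a related gene within each library, as a log2 ratio of counts per kilobase of exon, with 0.5 added to each count. The two-sided exact sign-flip permutation test over 4 libraries cannot give a p below 0.125, or 0.143 after Benjamini-Hochberg adjustment over the 8 pairs, and 7 of the pairs had that p. Nr3c1 exceeded Nr3c2 in 4 of 4 libraries, by log2 ratios of 1.24, 1.40, 1.37 and 1.26 in libraries 1 to 4, or 2.49-fold on average. This ratio was the steadiest of the 8, with an SD of 0.077. Hsd11b1 exceeded its counterpart Hsd11b2, which had 8, 11, 0 and 3 counts, in 4 of 4 libraries. The log2 ratio was 3.34 in library 1 and 1.39 in library 2, and with 3 counts or fewer of Hsd11b2 in libraries 3 and 4 no size is given there.

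Fkbp4, the Hsp90 partner that acts opposite to Fkbp5 on the receptor, was the higher of that pair in 4 of 4 libraries, 25.5-fold on average. Its level was 404 ± 17.4 CPM (SD, n = 4), so the log2 ratio of Fkbp5 to Fkbp4, at -4.06, -5.84, -4.79 and -4.02, followed the level of Fkbp5. The size depended on the length used, with a mean of -3.44 for the longest transcript and -2.91 without length. Sgk1 exceeded Sgk3, a related kinase, by 4.30 ± 0.34 on the log2 scale, with library 2 lowest at 3.78, and by 3.04 with the longest transcript or 2.75 without length. Ddit4 exceeded its paralog Ddit4l by 6.48 ± 1.03, from 4 to 14 counts of Ddit4l, and by 5.75 without length. Cebpd was below Cebpb, a relative in the same transcription factor family, by a log2 ratio of -2.81 ± 0.45, or -1.497 without length. Tsc22d3 and its relative Tsc22d1 were near each other at 0.23 ± 0.36, higher in 3 of 4 libraries (exact permutation p = 0.375), and the direction turned with the length used: -0.82 without length and -0.026 with the longest transcript.

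**Figure D3:**
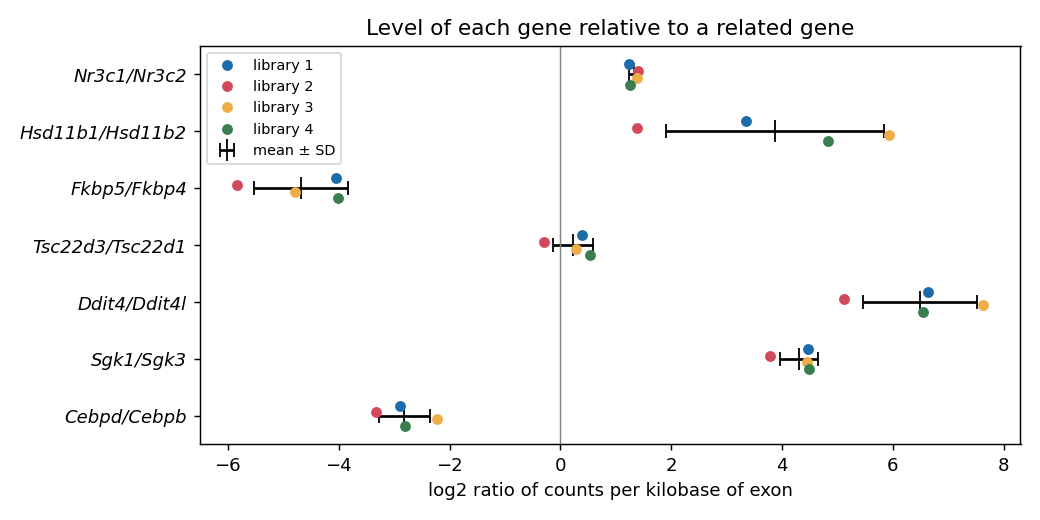
Log2 ratio of counts per kilobase of exon (horizontal axis) for 7 pairs of genes (vertical axis). Coloured points are libraries 1 to 4, black bars are mean ± SD. Nr3c1/Nr3c2 is tightly grouped at 1.32 ± 0.077, and the points of Tsc22d3/Tsc22d1 lie on both sides of 0. For Hsd11b1/Hsd11b2 the library 3 point, and so the mean, depends on the 0.5 added to 0 counts.

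Of 14 chaperones and cochaperones of the receptor, 0 were called more variable by edgeR's quasi-likelihood test, with 4 at an unadjusted p under 0.05, and limma and the DESeq2 outlier rule also called 0, while edgeR with no filter on low counts called 1. Over all genes tested, 741 of 12358 had an unadjusted p under 0.05 and 55 were called by edgeR. Hsp90ab1, a form of Hsp90, had 1757 ± 153 CPM (SD, n = 4) and Hspa8, the constitutive Hsp70, 1283 ± 208 CPM. Of 14 coregulators, 0 were called by any of the 3 tools, with 1 at an unadjusted p under 0.05 by edgeR. Among them the corepressor Ncor1 had 214 ± 7.60 CPM (SD, n = 4). The median log2 variance ratio was 1.16 for the chaperones and 0.35 for the coregulators, against -0.23 over all genes tested.

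Most genes of steroid supply were scarce or undetected. H6pd, which makes the cofactor for Hsd11b1, had 90.3 ± 5.24 CPM (SD, n = 4), and the steroid exporter Abcb1a had 20.2 ± 2.44 CPM. Of 13 genes in this list 5 were tested and 0 were called by edgeR, limma or the DESeq2 outlier rule, with 0 at an unadjusted p under 0.05 by edgeR. Hsd3b1, Cyp11b1, Cyp11b2 and the plasma carrier Serpina6 had 0 counts. Of the 7 genes of mineralocorticoid action and sodium transport that were tested, 0 were called by the 3 tools, with 0 at an unadjusted p under 0.05 by edgeR. Among all 12358 genes tested, edgeR called 0.445% and the DESeq2 outlier rule 129 genes. An unadjusted p under 0.05 by edgeR was found for 741. Counts of 0 in lists this short therefore tell little. The kinase Wnk1, a regulator of salt transport, had 736 ± 13.0 CPM (SD, n = 4).

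Among other known glucocorticoid targets, several had a spread like that of the members. Of a list of 38, 35 were tested, and 10 were called more variable by edgeR's quasi-likelihood test with Benjamini-Hochberg adjustment, beside 0.445% of all genes tested. The median log2 variance ratio of the 35 was 2.79, against -0.23 over all genes tested. Of the 35, 28 were lowest in library 2, beside 30.7% of all genes tested. Immediate early genes, described below, were alike in this, with a median of 2.84 and 18 of 25 lowest in library 2. The target list was drawn up with earlier results of these data known, so its count is not independent of the members. With a prior that was not robust, 0 of the 35 and 0 of the 10 members were called by edgeR, with 20 and 8 at an unadjusted p under 0.05. Limma called 9 of the 35 and the DESeq2 outlier rule 13. The largest ratio among the 10 was that of Mt2, a metal-binding metallothionein, with 43.7, 8.76, 17.7 and 41.3 CPM in libraries 1 to 4 (adjusted p = 0.00777). Zfp36, which speeds decay of inflammatory messenger RNAs, had 78.6, 24.3, 40.3 and 70.6 CPM (edgeR adjusted p = 0.0129). Both had library 2 lowest and library 3 next.

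The same order held for Per1, a clock gene induced directly by the receptor, at 201, 73.4, 138 and 196 CPM (edgeR adjusted p = 0.0132). It held too for Dusp1, a phosphatase that switches off stress kinases, at 136, 58.7, 81.0 and 139 CPM (edgeR adjusted p = 0.0169). Fam107a had 19.98, 4.17, 7.79 and 20.2 CPM (edgeR adjusted p = 0.0169), a range of 4.84-fold. Cebpb had 32.5, 12.0, 14.2 and 25.3 CPM (edgeR adjusted p = 0.0491), close to the threshold, and 20.7% of its exon bases are shared with Tmem189 on the opposite strand.

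A second shape, with library 3 highest, was that of Sgk1. Pdk4, which holds back glucose oxidation, had 261, 158, 400.4 and 293 CPM (edgeR adjusted p = 0.0169). Glul, which makes glutamine, had 753, 413, 825 and 777 CPM (edgeR adjusted p = 0.0440). Mt1 and Angptl4 were also called and were named after their values were seen, with edgeR adjusted p-values of 0.0228 and 0.0218. Angptl4, a lipase inhibitor, had this second shape, at 6.66, 1.37, 15.4 and 5.60 CPM. Mt1 did not, with 253, 104, 182 and 215 CPM, highest in library 1. Without library 3, 6 of the 10 remained called, and Pdk4, Glul, Angptl4 and Cebpb did not. Without library 2, Per1, Mt1 and Glul were no longer called, and without library 1, Mt1 and Cebpb were not. With libraries 1 and 4 alone, 0 of the 35 were called by edgeR, with 4 at an unadjusted p under 0.05. Only 6 of 12345 genes were called in that setting, so a count of 0 in a short list tells little. Abundant targets that were not called included Acsl1, which activates fatty acids, at 1017 ± 33.6 CPM (SD, n = 4), and the prostaglandin synthase Ptgds at 490, 285, 459 and 502 CPM.

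**Figure D4:**
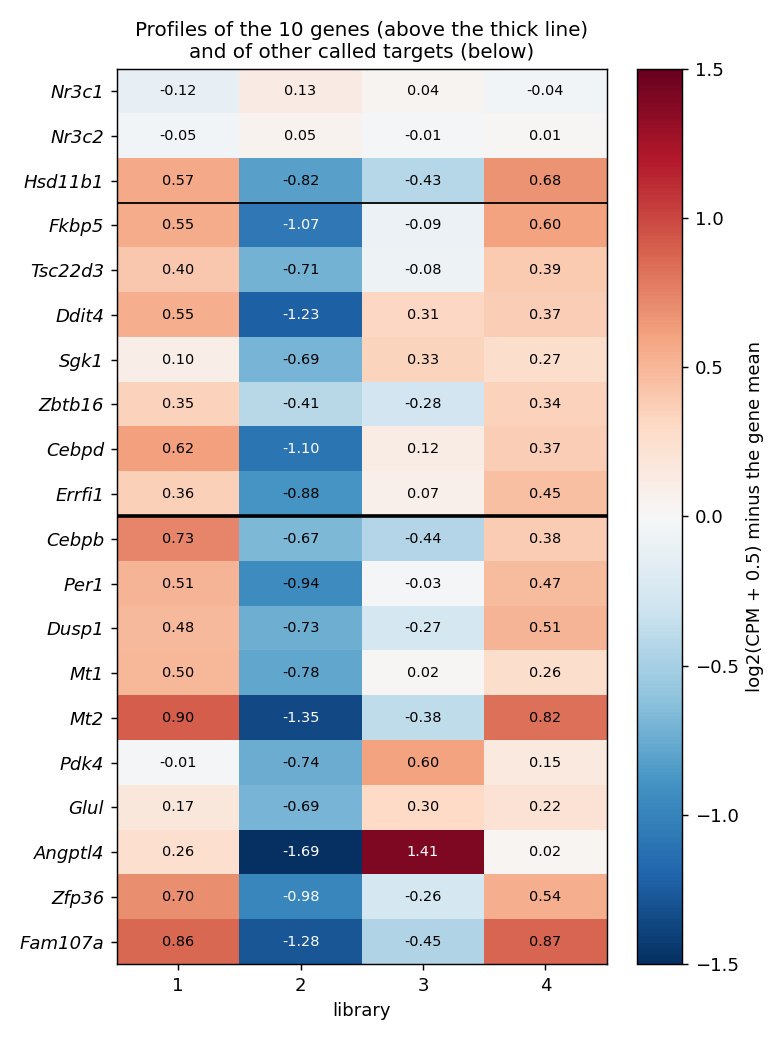
Profile of each gene as log2(CPM + 0.5) minus its mean over libraries 1 to 4 (columns), with red above and blue below the mean. Above the thick line are the 10 genes and below it the 10 other targets that were called. Library 2 is blue in all rows but Nr3c1 and Nr3c2, and Sgk1, Pdk4, Glul and Angptl4 are reddest in library 3.

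Some genes of other responses differed between the libraries too. Immediate early genes summed to 868, 486, 596 and 817 CPM in libraries 1 to 4, and 5 of 25 were called by edgeR's quasi-likelihood test, beside 0.445% of all genes tested. Without library 2 the count was 8 of 25, beside 69 of 12352 genes. Fos, a transcription factor induced within minutes by many stimuli, had 17.6, 2.37, 3.14 and 14.8 CPM (adjusted p = 0.0118). Zfp36 and Dusp1, among the 5, are also on the list of glucocorticoid targets. Clock genes summed to 1326, 1128, 1079 and 1341 CPM, with 2 of 17 called by edgeR, Per1, which is also a target, and Ciart, listed as Gm129. With a prior that was not robust, 0 of the 25 and 0 of the 17 were called by edgeR, with 13 and 6 at an unadjusted p under 0.05. In libraries 1 and 4 alone 0 and 0 were called, beside 6 of 12345 genes. At an unadjusted p under 0.05 edgeR placed 5 and 0 there. Ciart, a clock repressor, had 47.0, 15.3, 10.8 and 48.2 CPM (edgeR adjusted p = 0.00626). Libraries 2 and 3 were low for Fos and Ciart, and the part of these genes, and of the division in Xist, in the spread of the receptor targets was not tested. Smooth muscle and pericyte markers summed to 758, 680.2, 753 and 790 CPM in libraries 1 to 4, lowest in library 2. Macrophage markers summed to 269, 240.5, 244 and 273 CPM, also lowest in library 2. That list of 8 names the same gene by both of its symbols, Adgre1 and Emr1. It may therefore count more than once, so these sums are uncertain. Fibroblast markers summed to 927, 954, 829 and 923 CPM, and endothelial markers to 1076 to 1096 CPM. In that order, 3 of 6, 1 of 8, 2 of 7 and 2 of 7 markers had an unadjusted p under 0.05 by edgeR. Over all genes tested, 741 of 12358 did. The part of these cell types in the results was not tested.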

How the data were processed

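Values are the authors' deposited read counts by gene symbol, whole numbers without normalization. Per the labels' protocols, poly(A) RNA went into unstranded single-end libraries. Per the submitters' processing notes, the build was mm10 and the tools included edgeR, DESeq, HTSeq, TopHat2 2.0.10 and Bowtie2, with no roles stated. For the annotation and the mode of counting, the sources used here give nothing. The 5 rows that name no gene were left out and held 8.96 to 9.30% of listed reads. Rn45s took 11.9 to 14.1% of gene counts.

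CPM was computed over all gene counts. Spread was tested with edgeR 4.0.16 in R 4.3.3: a model of the intercept alone, TMM factors, a filter of 1 CPM on the mean, and a quasi-likelihood fit with robust prior. The ratio of each gene's variance to the trend was referred to the upper tail of F on 3 and 7.42 degrees of freedom, with Benjamini-Hochberg adjustment over all 12358 genes. The test was also run on simulated counts. Alternatives were limma 3.58.1, DESeq2 1.42.0 factors and dispersion outliers, no filter, a prior that was not robust, other lengths, and libraries left out. Poisson limits (95%) and the floor of 3 counts cover counting error only.

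The members, lists and pairs were chosen with earlier results of these data known. Genes named are the members, both genes of each pair, up to 5 called genes with the largest variance ratio and up to 3 of the highest mean in each list, the 5 nearest profiles to Fkbp5, Tsc22d3 and Ddit4, and the sex-linked genes. Some genes that this rule would name are not reported here. Positions come from GENCODE M21 (GRCm38, the same assembly as mm10) and promoter sequences from RefSeq (GRCm38.p6).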

Additional observations from a re-analysis of the deposited data

Results flagged for a closer look

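Of 92 values checked, 5 had 1 library far from the other 3 relative to the range of the 4, and chance alone gives this in about 1 in 20 groups. The share found is near that rate, so the 5 are listed as a description only. The log2 ratio of Sgk1 to Sgk3 per kilobase was 3.78 in library 2, against 4.47, 4.46 and 4.48 in libraries 1, 3 and 4. 8430408G22Rik, among the nearest profiles to Ddit4, stood at 22.8 CPM in library 2 and at 76.7, 86.1 and 79.4 CPM elsewhere. It was picked for that likeness, and Sgk1 partly for spread, so a low library 2 was favoured in both. The clock repressor Nr1d1 stood at 149.9 CPM in library 3 and at 239, 245 and 235 CPM elsewhere. Nos2, the inducible nitric oxide synthase, stood at 15.1 CPM in library 3 and at 21.9, 21.5 and 21.4 CPM elsewhere. The summed cardiomyocyte markers came to 108338 CPM in library 3, against 98532 to 99515 CPM in the other 3.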

How the results depend on the processing

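The count of genes called more variable, 55 of 12358, was 258 of 17447 with no filter on low counts. A prior that was not robust gave 10 and the DESeq2 outlier rule 129. Libraries 1 and 4 only gave 6 of 12345, with 0 of them among the 55. Leaving out 1 library gave 39 to 69. Of 81 pathway genes tested, 10 were called, all from the list of other glucocorticoid targets. The count was 17 of 98 with no filter and 0 without the robust prior (25 at an unadjusted p under 0.05 by edgeR). It was 0 in libraries 1 and 4 only (8 unadjusted), and leaving out 1 library gave 6 to 10. Among the other glucocorticoid targets the same settings gave 16, 0 (20 unadjusted), 0 (4 unadjusted) and 6 to 10, against 10. Members called were 3, against 8 with no filter or by the DESeq2 outlier rule, 0 without the robust prior (8 unadjusted), and 1, Zbtb16, without library 2. The median coefficient of variation of the members, 34.3%, was 15.8 to 40.9% with 1 library left out, lowest without library 2, and 4.20% in libraries 1 and 4. For pairs, 62 of 64 alternatives kept the direction, and Tsc22d3/Tsc22d1 turned to -0.82 without length and -0.026 with the longest transcript. The cause of these shifts was not tested. Ratios to Hsd11b2 and Ddit4l rest on few counts. No paired analysis was possible because the series holds 1 group.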

Other observations

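The oestrogen receptors Esr1 and Esr2 had 0.581 ± 0.214 and 0.172 ± 0.131 CPM (SD, n = 4), under the level needed for the test. Genes listed here as inflammatory and repressed by glucocorticoids were low and summed to 59.9, 70.0, 57.1 and 62.5 CPM in libraries 1 to 4. Whether each is repressed in the heart was not tested. Of the 14 on the list, 6 were tested and 0 were called by edgeR, limma or the DESeq2 outlier rule. By edgeR, 1 had an unadjusted p under 0.05. Among all 12358 genes tested, edgeR called 55 and placed 741 at an unadjusted p under 0.05. A count of 0 among 6 genes thus tells little. The adhesion molecule Icam1 had 11.2, 17.3, 17.96 and 13.2 CPM, higher in libraries 2 and 3, and the interleukin 1 receptor Il1r1 had 12.5, 11.7, 8.93 and 14.3 CPM. Il6 had 0 counts in all 4 libraries.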
